A study of Mus musculus with 6 samples.

Results

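MHC class I molecules are cell surface proteins that display peptides from inside the cell to CD8 T cells and natural killer cells. A heavy chain (H2-D1 or H2-K1 in C57BL/6 mice) pairs with beta-2-microglobulin (B2m). The peptides are cut by the proteasome, whose catalytic subunits can be replaced by the inducible subunits Psmb8, Psmb9 and Psmb10 of the immunoproteasome, are pumped into the endoplasmic reticulum by the transporter Tap1-Tap2, and are loaded onto class I with the help of tapasin (Tapbp). Nlrc5 is a nuclear protein that switches on class I promoters, and interferons raise the expression of the whole pathway. In the brain, microglia and endothelial cells are known for class I expression, neuronal class I has been linked to synapse remodeling, and cells of the oligodendrocyte lineage carry little class I until interferon gamma induces it. These 10 genes, picked by symbol for their place in this pathway, were followed here among the 18211 genes of the deposited table. The choice was made with earlier results of these data known.

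RNA-sequencing was performed on OPCs, the precursors of myelinating oligodendrocytes, taken from P7 mouse brains by immunopanning on Pdgfra and used without culture. There were 3 libraries from DISC1-Δ3 mice, whose genotype is NG2-CreERTM: DISC1 exon3 fl/+, and 3 from WT mice that carry no CreERT. All mice were C57BL/6, and both groups received tamoxifen by gavage from P4 to P7, so that Cre removes exon 3 from 1 Disc1 allele in DISC1-Δ3 mice. The presence of CreERT and the loss of the exon cannot be told apart in this design, and NG2 is also known to be expressed by pericytes. How many mice went into each library is not stated, so the p-values below measure only the spread between these libraries. The libraries held 13716619 to 16417219 reads assigned to genes. Levels are given as RPKM (reads scaled by transcript length and sequencing depth), and fold changes are edgeR log2 fold changes of DISC1-Δ3 over WT with p-values adjusted over all 13792 genes tested.

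The 9 OPC markers examined were all detected and summed to 531 to 552 RPKM in the WT libraries, but the 16 microglia markers summed to 16840 to 17170 RPKM. In the same libraries 8 oligodendrocyte markers summed to 2514 to 2547 RPKM and 8 astrocyte markers to 1870 to 1909. C1qa, a complement subunit made by microglia in the brain, was the gene with rank 7 by WT level. Pdgfra, the surface receptor used for panning, was at 17.5 ± 0.503 RPKM in WT and 25.9 ± 0.915 in DISC1-Δ3 libraries (SD, n = 3 each). The class I values below are therefore levels in the whole isolate, and in such bulk RNA fewer cells of a type and less RNA per cell cannot be told apart. Disc1 itself was at 3.55 ± 0.238 RPKM in WT and 2.72 ± 0.240 in DISC1-Δ3 libraries (log2 fold change -0.45, adjusted p = 0.000528), counted over the whole gene and not over exon 3. DISC1-Δ3 replicate 3 stood apart from the other replicates, since its counts gave a chi-square of 5.01 to 5.43 for each degree of freedom against them, where the other pairs within a group gave 1.80 to 2.99.

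The genes lie on 3 chromosomes (GRCm38, the build the submitters name as mm10; positions from RefSeq). The heavy chain genes lie within the MHC on chromosome 17, H2-K1 at chr17:33996012-34000619 and H2-D1 at chr17:35263094-35267497. Tapbp is at chr17:33919478-33929290, and a cluster between them holds Psmb9 (chr17:34182030-34187330), Tap1 (chr17:34187556-34197225), Psmb8 (chr17:34198195-34201454) and Tap2 (chr17:34204479-34216321). B2m is at chr2:122147687-122153082. Nlrc5 (chr8:94434335-94527272) and Psmb10 (chr8:105935728-105938392) are on chromosome 8. Nlrc5 is recruited to class I promoters by factors that bind a set of neighbouring boxes, among them a cyclic AMP response element, with the core TGACG, and an inverted CCAAT box, ATTGG. The 250 bases before the start were searched on both strands for 8 of the 10 genes, those in the RefSeq promoter table of GRCm38.p6. Where a gene had several starts, the first listed was used, here and for all promoters compared. The start used for H2-K1, at position 34000347, lies 272 bases inside the gene interval given above. The H2-K1 stretches therefore lie before that start and yet within the interval. For the other genes the start was that of the interval. The 3 stretches below are shown because the TGACG core (capitals, left) and the inverted CCAAT box (capitals, right) stand at the same distance in the genes of both heavy chains and of the light chain, 5′ to 3′ on the gene's strand.
H2-D1, chr17:35262993-35263022, plus strand: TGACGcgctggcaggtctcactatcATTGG
H2-K1, chr17:34000359-34000388, minus strand: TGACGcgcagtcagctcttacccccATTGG
B2m, chr2:122147609-122147638, plus strand: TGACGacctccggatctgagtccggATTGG

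In each, ATTGG begins 25 bases after the start of TGACG. This arrangement was found in 21 of 14252 promoters (0.147%), the distance having been chosen after the matches in these genes were seen, and the class I-like gene H2-M3 was among them. On its own, TGACG stood in 23.2% of all promoters and the CCAAT box in 36.0%. Tap1 and Psmb9, whose starts face away from each other on opposite strands, also held both motifs, but these are the same bases read from either side. They do not form the arrangement above, since on the strand of Tap1 an upright CCAAT box came before TGACG. Tapbp held the CCAAT box alone. An NF-kB site, written as GGG and TTCCC 2 bases apart, was present in H2-D1 and H2-K1 and in 1.82% of all promoters. The windows around it are shown because the site, in capitals, reads the same in both genes.
H2-D1, chr17:35262913-35262942, plus strand: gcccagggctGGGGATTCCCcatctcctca
H2-K1, chr17:34000439-34000468, minus strand: gcccagggctGGGGATTCCCcatctccaca

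B2m was the only one of the 8 with an exact match to an interferon-stimulated response element core, written as a pair of GAAA 2 bases apart, which 2.79% of all promoters held. Only this exact form was searched, so a variant of the element in another promoter would have been missed. A gamma-activated sequence, TTC and GAA 3 bases apart, was found in Psmb8 and in 6.14% of all promoters. In the promoter of Psmb10 none of the 5 motifs matched. The B2m sequence before the start, from which each of its matches can be read, is given with the response element core, TGACG and ATTGG in capitals from left to right.
B2m, chr2:122147437-122147685, plus strand: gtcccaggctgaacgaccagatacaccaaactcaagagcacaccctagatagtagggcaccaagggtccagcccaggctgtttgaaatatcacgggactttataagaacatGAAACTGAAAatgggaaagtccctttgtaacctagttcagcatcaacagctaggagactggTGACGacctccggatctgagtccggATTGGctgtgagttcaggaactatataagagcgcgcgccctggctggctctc

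All 10 genes were lower in the DISC1-Δ3 libraries, with log2 fold changes from -0.93 to -0.36. Of all genes tested, 19.5% were called lower and 20.4% higher, and none of the 10 was called higher. For every one of the 10, each DISC1-Δ3 library was below each WT library, which held for 23.2% of all genes tested. The median log2 fold change of the 10 was -0.83, beside 0.0075 over all genes tested. Summed over the 10, the level was 2550 to 2622 RPKM in WT and 1555 to 1564 in DISC1-Δ3 libraries, and their share of all reads was 0.293% to 0.299% and 0.177% to 0.180%. Without DISC1-Δ3 replicate 3, all 10 were still called lower, with a median of -0.80.

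**Figure D1:**
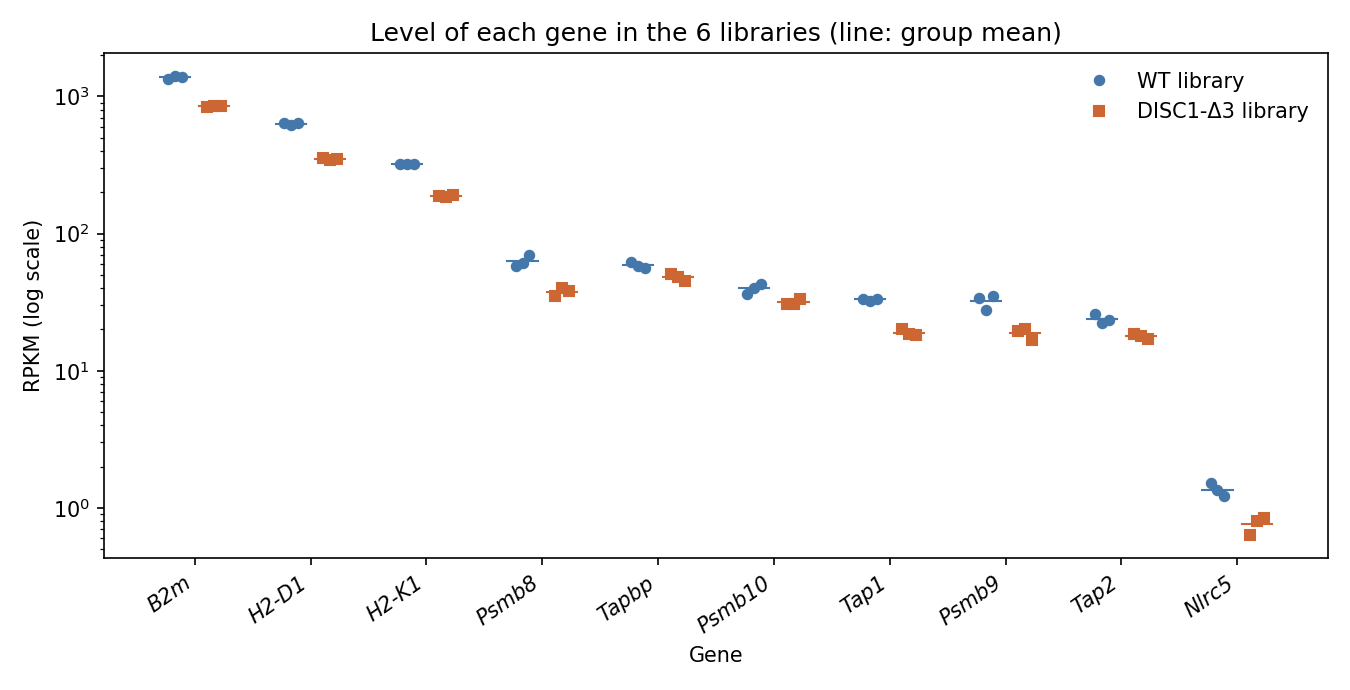
RPKM (log scale) of the 10 class I pathway genes in the 3 WT (circles) and 3 DISC1-Δ3 libraries (squares), ordered by WT mean, with a line at each group mean. In every gene the squares lie below the circles, from B2m with a WT mean of 1380 RPKM to Nlrc5 with 1.36.

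The 2 heavy chain genes and B2m had the highest levels, and the fall was of similar size in all 3. H2-D1 was at 635, 618 and 639 RPKM in the WT libraries and at 357, 345 and 347 in the DISC1-Δ3 libraries. The highest DISC1-Δ3 library was thus far under the lowest WT library, and the DISC1-Δ3 mean was 55.5% of the WT mean. The edgeR log2 fold change was -0.93 (SE 0.041, adjusted p = 5.41e-12). H2-K1 was at 320, 322 and 324 RPKM in WT and at 187, 184 and 191 RPKM in DISC1-Δ3 libraries. WT libraries differed by only a few RPKM here, and H2-K1 fell by 0.87 on the log2 scale (SE 0.04, adjusted p = 1e-11). B2m, the light chain shared by all class I molecules, was at 1345, 1410 and 1397 RPKM in WT and at 844, 850 and 856 in DISC1-Δ3 libraries. It fell by 0.78 on the log2 scale (SE 0.041, adjusted p = 7.25e-11), and held rank 60 by WT level.

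Heavy chain genes are close copies of each other, and the expected counts of H2-D1 and H2-K1 are not whole numbers because reads that match several genes were divided. With the reads of 22 class I heavy chain genes added up, 83.3% to 85.8% of which were assigned to H2-D1 and H2-K1, the log2 fold change was -0.88 (SE 0.0395, adjusted p = 7.72e-12). The sum was 24403 to 29740 reads in WT and 14809 to 16677 in DISC1-Δ3 libraries. H2-D1 stood at 1.96 ± 0.0338 times the level of H2-K1 in WT and at 1.87 ± 0.0485 times in DISC1-Δ3 libraries (SD, n = 3), with 1.92 as the lowest WT and 1.91 as the highest DISC1-Δ3 ratio.

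The transporter and tapasin genes fell by unequal amounts. Tap1 was at 33.3, 32.5 and 33.5 RPKM in WT and at 20.1, 18.6 and 18.2 in DISC1-Δ3 libraries (log2 fold change -0.88, SE 0.058, adjusted p = 1.29e-09). Its partner Tap2 was at 25.8, 22.2 and 23.3 RPKM in WT and at 18.4, 18.1 and 17.03 in DISC1-Δ3 libraries (log2 fold change -0.49, SE 0.07, adjusted p = 1.96e-05). The 95% intervals of these changes, -1.0 to -0.76 for Tap1 and -0.64 to -0.35 for Tap2, did not overlap. Per length, Tap1 stood at 1.40 ± 0.0916 times Tap2 in WT and at 1.06 ± 0.0315 times in DISC1-Δ3 libraries, with 1.29 as the lowest WT and 1.09 as the highest DISC1-Δ3 ratio. This comparison was picked after the values were seen and was not tested. Tapbp, which holds empty class I at the transporter, was at 61.6, 57.7 and 56.4 RPKM in WT and at 51.1, 48.1 and 45.4 in DISC1-Δ3 libraries. Its log2 fold change of -0.36 (SE 0.054, adjusted p = 3.85e-05) was the smallest of the 10, and its DISC1-Δ3 mean was 82.3% of the WT mean.

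Among the immunoproteasome subunits, Psmb8 and Psmb9 fell more than Psmb10. Psmb8 was at 58.2, 61.0 and 69.4 RPKM in WT and at 34.8, 40.4 and 38.1 in DISC1-Δ3 libraries (log2 fold change -0.81, SE 0.076, adjusted p = 1.24e-07). Psmb9, the neighbour of Tap1 in the MHC, was at 33.9, 27.6 and 35.1 RPKM in WT and at 19.6, 20.1 and 16.7 in DISC1-Δ3 libraries (log2 fold change -0.84, SE 0.11, adjusted p = 6.44e-06). The WT spread of both was wide beside that of Tap1, and yet no DISC1-Δ3 library reached a WT library. Psmb10 was at 36.4, 40.2 and 43.2 RPKM in WT and at 30.8, 30.5 and 33.1 in DISC1-Δ3 libraries (log2 fold change -0.42, SE 0.074, adjusted p = 0.000188). Its 95% interval, -0.58 to -0.27, lay above those of Psmb8 (-0.97 to -0.65) and Psmb9 (-1.07 to -0.62).

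Nlrc5 had the lowest level of the 10. It was at 1.51, 1.34 and 1.22 RPKM in WT and at 0.63, 0.80 and 0.85 in DISC1-Δ3 libraries, which is 145 to 161 reads in WT and 66 to 99 in DISC1-Δ3 libraries. The log2 fold change was -0.91 (SE 0.15, adjusted p = 7.58e-05), with a 95% interval from -1.22 to -0.60 that is the widest of the 10. On the log2(RPKM + 1) scale, which understates the change of low genes, it was -0.42.

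The order of the levels changed little between the groups. B2m, H2-D1 and H2-K1 stood in this order without overlap in both groups. In WT libraries Psmb8 and Tapbp overlapped, as did Tap1 and Psmb9. In DISC1-Δ3 libraries Tapbp, at 45.4 RPKM or more, was above Psmb8, at 40.4 or less, while Tap1, Psmb9 and Tap2 overlapped between 16.7 and 20.1 RPKM. The falls were not limited to the MHC, since the 7 genes on chromosome 17, the 2 on chromosome 8 and B2m on chromosome 2 were all lower.

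**Figure D2:**
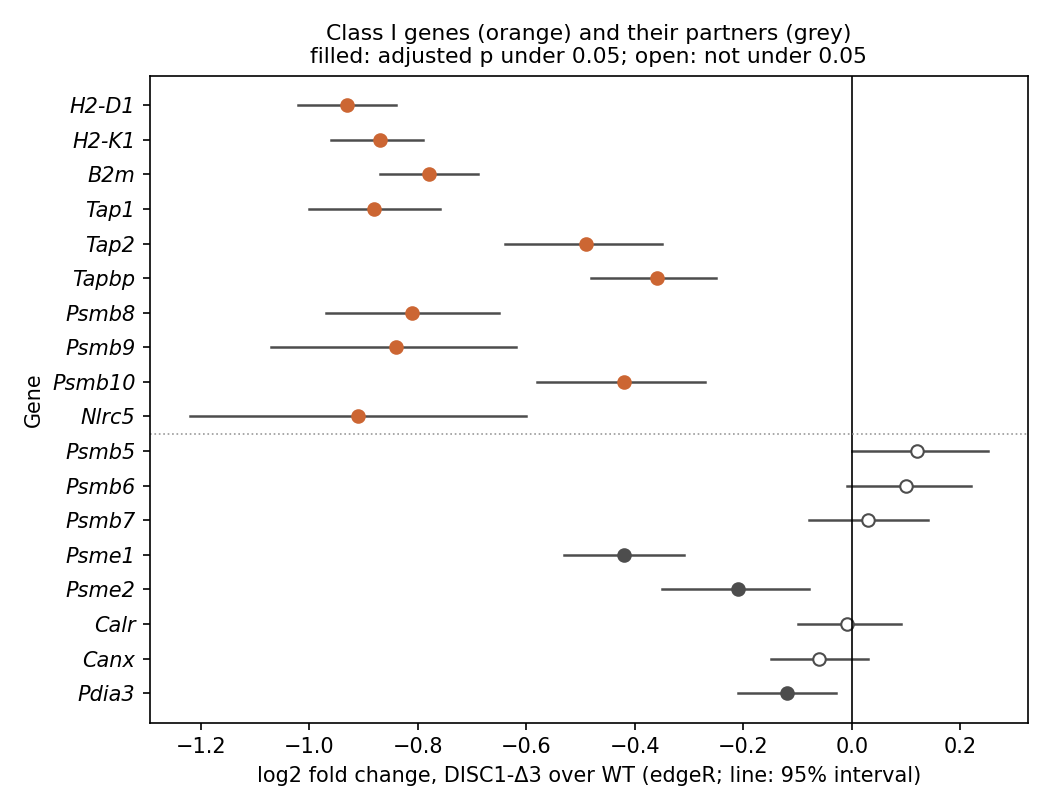
edgeR log2 fold change of DISC1-Δ3 over WT with its 95% interval for the 10 class I pathway genes (orange) and for 8 partner genes (grey), with filled points at an adjusted p under 0.05. The orange points lie between -0.93 and -0.36, and the standard subunits Psmb5, Psmb6 and Psmb7 lie between 0.03 and 0.12 with open points.

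Each inducible subunit takes the place of a standard catalytic subunit, Psmb8 of Psmb5, Psmb9 of Psmb6 and Psmb10 of Psmb7, so that their ratio within a library does not depend on scaling between libraries. The standard subunits were not called changed with TMM scaling, but with library totals alone Psmb5 and Psmb6 were called higher. Psmb5 was at 73.9 ± 1.19 RPKM in WT and 85.1 ± 3.26 in DISC1-Δ3 libraries, without overlap, with an edgeR log2 fold change of 0.12 (adjusted p = 0.111). The log2 fold change of Psmb6 was 0.10 (95% interval -0.01 to 0.22) and that of Psmb7 was 0.03 (95% interval -0.08 to 0.14). The ratio of Psmb8 to Psmb5 was 0.803, 0.816 and 0.934 in WT and 0.394, 0.493 and 0.450 in DISC1-Δ3 libraries, a difference of -0.94 on the log2 scale. Psmb9 to Psmb6 stood at 0.284 ± 0.0347 in WT and 0.146 ± 0.013 in DISC1-Δ3 libraries, a log2 difference of -0.96. Psmb10 to Psmb7 stood at 0.309 ± 0.0184 and 0.228 ± 0.0165, a log2 difference of -0.44. No DISC1-Δ3 ratio reached a WT ratio in any of the 3 pairs, and each gave p = 0.1 in a two-sided exact permutation test, also after adjustment over the 3 pairs, which is the smallest p that 3 against 3 libraries allow.

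**Figure D3:**
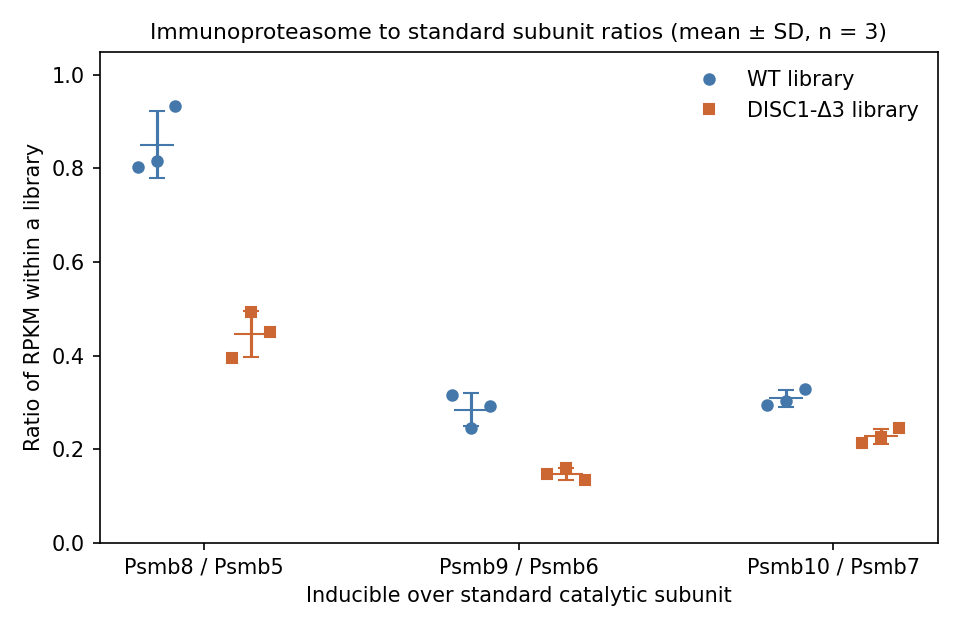
Ratio of RPKM of each inducible subunit to the standard subunit it replaces, per library (circles WT, squares DISC1-Δ3), with the mean ± SD of 3 libraries. The ratio of Psmb8 to Psmb5 is 0.851 on average in WT and 0.445 in DISC1-Δ3 libraries, and the groups are apart in all 3 pairs.

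Few of the standard core genes were called. Of 14 standard core subunits, 1 was higher, 1 was lower and 12 were not called, with a median log2 fold change of 0.01. Psmb3 and Psmb1 had the highest levels, at 148 ± 9.04 and 141 ± 7.99 RPKM in WT and at 154 ± 2.40 and 149 ± 7.57 in DISC1-Δ3 libraries. Psma6 was lower by -0.19 (adjusted p = 0.0201) and Psma3 higher by 0.17 (adjusted p = 0.0429). These calls turned with the scaling, since with library totals alone 6 of the 14 were called higher and 0 lower. Of 4 genes for the PA28 activator and proteasome assembly, 3 were lower and 1 was higher. Psme1, an activator subunit that interferon gamma induces, fell from 152 ± 6.63 to 120 ± 3.89 RPKM (log2 fold change -0.42, adjusted p = 5.13e-06), while Psme3, a subunit of the nuclear activator, rose (log2 fold change 0.24, adjusted p = 0.00512). The assembly factor Pomp was at 124 ± 6.75 and 117 ± 5.54 RPKM, and its call, like that of Psme2, was lost with library totals alone.

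Of 8 genes for chaperones and peptide trimming in the endoplasmic reticulum, which fold and load class I, 3 were lower, 0 were higher and 5 were not called at the adjusted threshold, with a median log2 fold change of -0.11. Calreticulin (Calr) was at 715 ± 31.5 RPKM in WT and 753 ± 24.4 in DISC1-Δ3 libraries, with a 95% interval of the log2 fold change from -0.10 to 0.09. Hspa5, the general chaperone BiP, was at 413 ± 17.6 and 408 ± 30.2 RPKM. The largest falls were those of Tapbpl, a tapasin-like peptide editor (log2 fold change -0.35, adjusted p = 0.00911), and of Erap1, the peptidase that trims peptides before loading (log2 fold change -0.32, adjusted p = 0.00458). Without DISC1-Δ3 replicate 3, 6 of the 8 were called lower, and with library totals alone 2 were.

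Of 18 other class I and class I-like genes, 13 passed the filter on low levels, and 9 of these were lower, 1 was higher and 3 were not called (8 lower with library totals alone). Their median log2 fold change was -0.52. H2-Q7, a nonclassical heavy chain, had the largest fall of the tested genes on this list, from 9.82 ± 1.36 to 3.73 ± 0.464 RPKM (log2 fold change -1.5, adjusted p = 2.99e-07). H2-M3, which presents formylated peptides, fell from 14.7 ± 0.226 to 6.18 ± 0.395 RPKM (log2 fold change -1.33, adjusted p = 1.28e-08). The genes with the highest levels do not present peptides: Fcgrt, the neonatal Fc receptor, fell from 163 ± 3.66 to 120 ± 6.07 RPKM, and Hfe, a regulator of iron uptake, from 59.2 ± 1.70 to 40.7 ± 0.762. Cd1d1, which presents lipids and is named because it was the exception, was higher (log2 fold change 0.39, adjusted p = 0.0273). Counts of H2-Q and H2-T genes depend on how shared reads were divided. Only 3 of 8 genes listed as class I receptors or their relatives passed the filter. Of these Pirb, an inhibitory receptor, was lower (log2 fold change -0.62, adjusted p = 4.47e-05), while Lilrb4a, at 6.73 ± 0.563 and 6.31 ± 1.09 RPKM, and the remaining gene were not called.

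**Figure D4:**
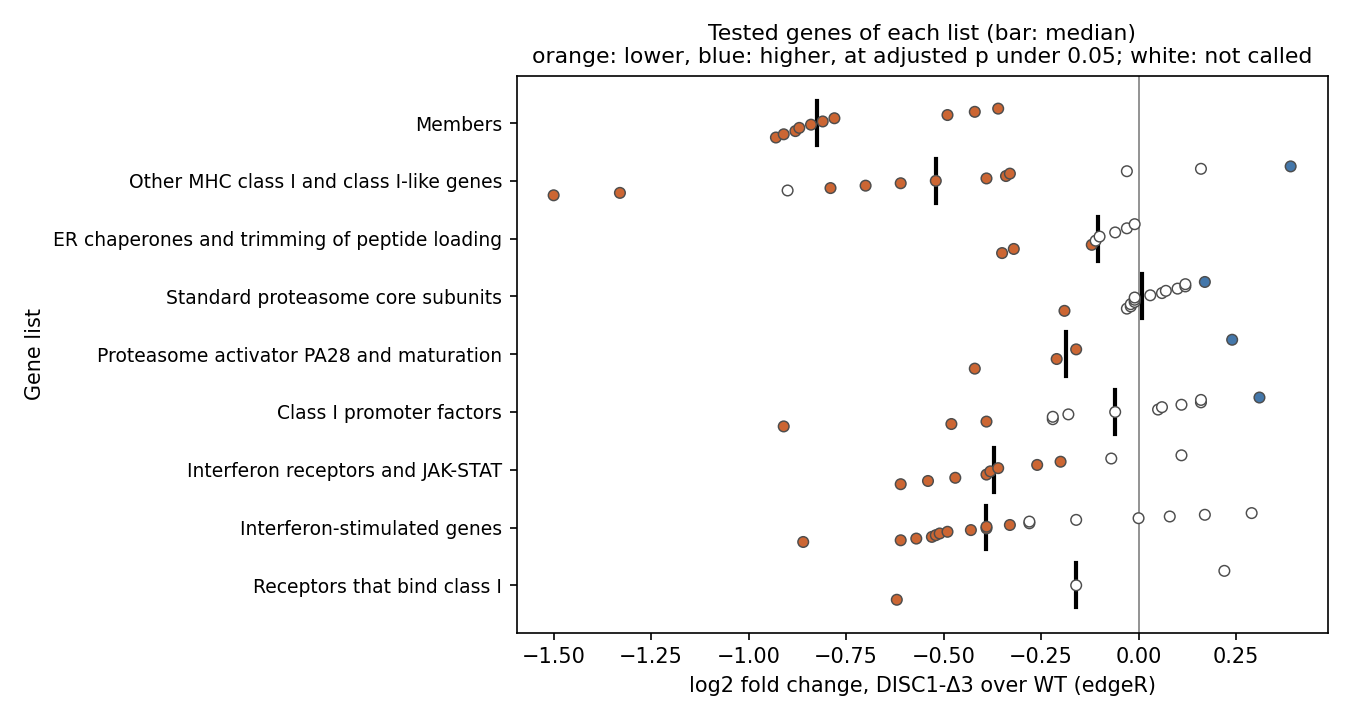
edgeR log2 fold change of each tested gene of the class I pathway and of 8 related lists, with orange for lower, blue for higher and white for not called, and a bar at each list's median. The median is -0.83 for the 10 genes, -0.52 for other class I genes and 0.01 for the standard proteasome core.

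Of 13 factors that act at class I promoters, 3 were lower, 1 was higher and 9 were not called, with a median log2 fold change of -0.06. The 3 that fell were all interferon regulatory factors. Irf1, which binds the interferon-stimulated response element, was at 65.7 ± 0.539 RPKM in WT and 36.9 ± 0.922 in DISC1-Δ3 libraries (log2 fold change -0.91, adjusted p = 7.07e-11). Irf8, a factor of the myeloid lineage, was at 83.9 ± 2.24 and 63.8 ± 4.18 RPKM (log2 fold change -0.48, adjusted p = 7.91e-07), and Irf2 fell by 0.39 on the log2 scale. Rela, the NF-kB subunit, was at 51.2 ± 0.913 and 56.0 ± 2.75 RPKM and was not called. Rfxap, a subunit of the RFX complex that binds beside TGACG, was higher (log2 fold change 0.31, adjusted p = 0.016). With library totals alone the count was 4 higher and 3 lower. With median-of-ratios scaling it was 1 higher and 4 lower, Rfx5 being added. Without DISC1-Δ3 replicate 3 it was 2 higher and 4 lower, with Creb1 added to the lower ones.

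Of 10 interferon receptor and JAK-STAT genes, 8 were lower and 0 were higher, with a median log2 fold change of -0.37. Ifngr1, the ligand-binding chain of the interferon gamma receptor, had the highest level and the largest fall, from 82.6 ± 1.88 to 57.2 ± 1.89 RPKM (log2 fold change -0.61, adjusted p = 1.53e-08). Ifnar2, of the type I interferon receptor, fell from 70.8 ± 0.272 to 58.2 ± 2.26 RPKM, and Stat2, which carries type I interferon signals, fell by 0.54 on the log2 scale (adjusted p = 5.86e-06). With library totals alone, 7 were lower and 1, Ifnar1, was higher. Of 18 interferon-stimulated genes outside the class I pathway, 11 were lower, 0 were higher and 7 were not called, with a median of -0.39. With library totals alone 10 were lower, with median-of-ratios scaling 13, and without DISC1-Δ3 replicate 3 12. Not all moved down, since 14 of the 18 were lower in direction. Among the 7 not called were Ifit1, Isg15 and Rsad2, with log2 fold changes of 0.29, 0.17 and 0.08. The others not called were Ifit2, Usp18 and Oas1a, at -0.28, -0.28 and -0.16, and Ifi44, at 0.0. Bst2, which tethers enveloped viruses, had the highest level of them, 128 ± 4.85 RPKM in WT and 93.6 ± 5.72 in DISC1-Δ3 libraries, and the GTPase Gbp2 the largest fall (log2 fold change -0.86, adjusted p = 8.11e-05). Ifi27 fell from 37.3 ± 0.425 to 30.4 ± 2.2 RPKM, and Irf7, the factor that amplifies type I interferon, by 0.61 on the log2 scale.

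Outside the lists, the genes whose profile over the 6 libraries was most like the mean profile of the 10 were Ly86, Abcg1, Tpbgl, Sap25 and Dusp2. Likeness was measured as the root-mean-square difference of log2 CPM centred on the WT mean, which was 0.025 for Ly86 and at most 0.033 for the others. Ly86, a partner of a Toll-like receptor homologue in myeloid and B cells, was at 349, 338 and 345 RPKM in WT and at 221, 221 and 226 in DISC1-Δ3 libraries. Among the 10 genes themselves the same measure ran from 0.055 for B2m to 0.27 for Tapbp.

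Other marker lists moved as well, and not all in the same direction. The summed microglia markers fell to 11880 to 12340 RPKM in DISC1-Δ3 libraries, 70.0% to 72.7% of their WT mean, while the summed level of the 10 genes stood at 60.1% to 60.4% of its own. Of the 16 microglia markers 15 were lower and 0 higher, with a median log2 fold change of -0.46, and none of them was at 0 in these libraries. C1qc, C1qa and C1qb, the complement subunits that led this list, stood at 3270 ± 37.6, 3310 ± 128 and 3100 ± 34.0 RPKM in WT, and C1qb fell by 0.69 on the log2 scale. Divided by the summed microglia markers, the summed 10 genes gave 0.151 to 0.154 in WT and 0.126 to 0.132 in DISC1-Δ3 libraries. Both sums rest mostly on their highest genes, B2m, H2-D1 and H2-K1 among the 10 and the C1q subunits among the markers. Gene by gene the falls overlapped in part. The DISC1-Δ3 mean was 55.5% (H2-D1) to 82.3% (Tapbp) of the WT mean among the 10, and 65.4% (C1qb) to 102% among the microglia markers. Tap2 (75.1%), Psmb10 (78.8%) and Tapbp lay within the range of the markers. The others of the 10, the highest being B2m at 61.4%, lay below every microglia marker. Endothelial markers summed to 216 to 230 RPKM in WT and 275 to 284 in DISC1-Δ3 libraries, and 6 of 10 were higher and 0 lower, with Cldn5 at 58.5 ± 3.27 and 80.9 ± 0.731 RPKM, Slco1c1 at 54.6 ± 1.45 and 59.9 ± 4.73 (not called), and Emcn rising by 0.67 on the log2 scale. The part of these markers' changes in the class I result was not tested.

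Of the 9 OPC markers 6 were higher and 1, Ptprz1, was lower, and their sum reached 125% to 129% of the WT mean. Olig1 rose from 252 ± 3.48 to 329 ± 14.6 RPKM, and Gpr17 and Lhfpl3 rose by 0.68 and 0.63 on the log2 scale. Of 8 oligodendrocyte markers 6 were lower, with sums at 91.1% to 92.5% of the WT mean. Mbp and Cnp, both highly expressed, were lower by -0.16 and -0.20 in log2 fold change, and Mag by -0.54. Of 8 astrocyte markers 6 were lower and 1 was higher, with sums at 94.7% to 95.5%. Among these, the log2 fold changes of Slc1a2, Slc4a4 and Aldoc were -0.59, -0.39 and -0.17, while Slc1a3, at 556 ± 6.28 and 564 ± 6.74 RPKM, was not called. Of 7 pericyte markers 6 were higher, with log2 fold changes of 0.33 for Vtn, 0.50 for Rgs5, 0.67 for Abcc9 and 1.02 for Higd1b. Of 8 neuron markers 7 were higher, with log2 fold changes of 0.19 for Tubb3, 0.13 for Stmn2, 0.48 for Snap25 and 0.96 for Syt1. Among 8 tested markers of border macrophages and monocytes 4 were lower and 4 were not called. S100a9 fell from 88.3 ± 8.05 to 69.1 ± 5.68 RPKM and Ly6c2 by 0.96 on the log2 scale, while Pf4, at 24.4 ± 0.971 and 28.4 ± 1.73 RPKM, was not called. Lymphocyte markers had low levels, with a sum of 7.42 to 8.76 RPKM in WT and 6.46 to 8.51 in DISC1-Δ3 libraries. Of the 5 tested only Cd79a was called, lower, and Nkg7 was at 1.59 ± 0.25 and 1.24 ± 0.611 RPKM. With library totals alone, border macrophage and monocyte markers gave 2 higher and 3 lower, OPC and endothelial markers 7 higher each, and oligodendrocyte and astrocyte markers 5 lower each, while the counts for microglia, pericytes and neurons were the same.

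**Figure D5:**
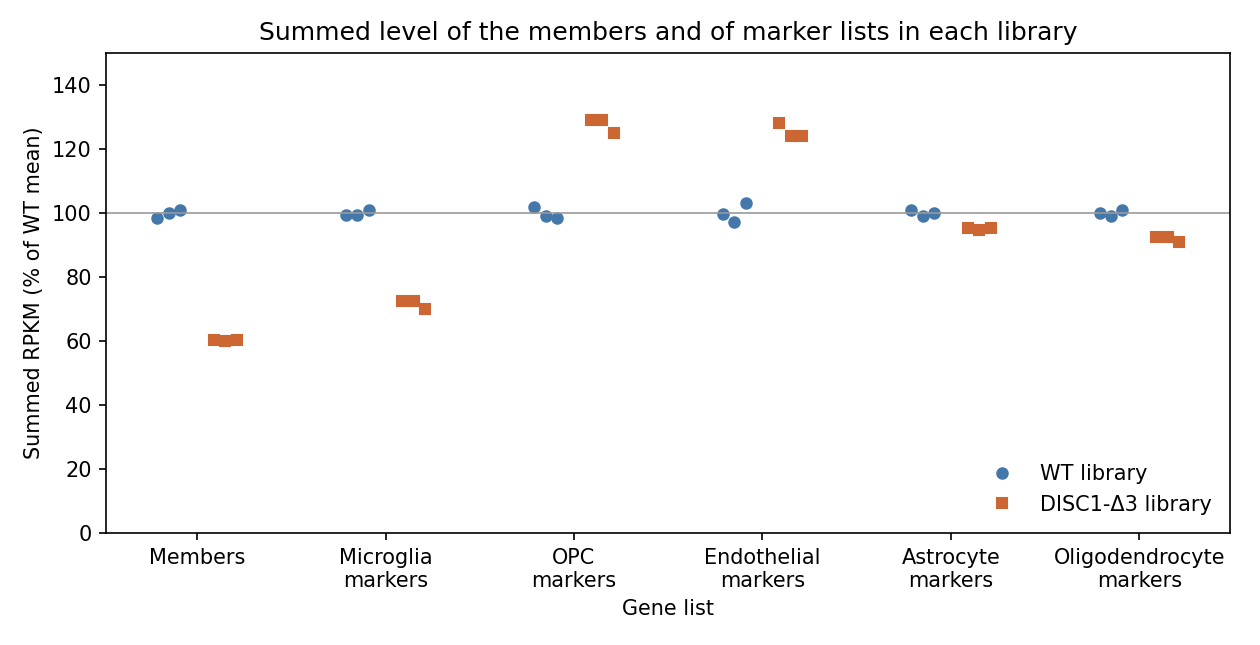
Summed RPKM of the 10 class I pathway genes and of 5 marker lists in each library, as a percentage of the WT mean (line at 100), with circles for WT and squares for DISC1-Δ3 libraries. In DISC1-Δ3 libraries the summed class I genes stand at 60.1% to 60.4% and the summed microglia markers at 70.0% to 72.7%. These sums are led by B2m, H2-D1 and H2-K1 and by the C1q subunits. OPC and endothelial markers stand above the WT libraries.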

How the data were processed

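RNA from cells isolated as OPCs at P7 was sequenced in 3 WT and 3 DISC1-Δ3 libraries. The authors deposited expected counts, with reads that match more than a single gene divided (90.2% of values above 0 are whole), and RPKM, which corrects for length and depth. The submitters' processing notes name Bowtie2 2.2.5 and mm10, and the paper names DESeq2; the counting tool and annotation are not given in the sources used here. In all, 4 columns of group averages were not used. Expected counts were rounded and tested with edgeR 4.0.16 (R 4.3.3; quasi-likelihood, TMM, genotype only, two-sided) in the 13792 genes that reached 0.5 RPKM in 3 or more libraries, with Benjamini-Hochberg adjustment and a threshold of 0.05. The genes and lists were chosen with earlier results of these data known. Pdgfra, Cd1d1, Psme2, Ifnar1, Irf2, Rfxap, Rfx5, Creb1, Ifit1, Ifit2, Ifi44, Isg15, Oas1a, Rsad2 and Usp18 were named after seeing their values. The rule otherwise named all 10 genes, their standard partners, Disc1 and the 5 most alike profiles. It also named, per list, the 2 highest in level and up to 2 most changed past the threshold. A gene under this rule is not reported here. Alternatives were other filters and scalings, DESeq2 1.42.0, limma 3.58.1 on log2 RPKM, a replicate block and leaving out each library. The fits were tested on simulated data. Depth, 13716619 to 16417219 reads, limits precision mainly for Nlrc5, and 1 read is worth 0.0609 to 0.0729 CPM. Promoters and positions came from RefSeq tables of GRCm38.p6.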

Additional observations from a re-analysis of the deposited data

How the results depend on the processing

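Across the 14 alternatives run per gene, all values of the 10 genes kept their direction and an adjusted p under 0.05. In each of these fits 10 genes were called lower and 0 higher. The summed class I heavy chain reads gave a single further value, -0.88, which covers H2-D1 and H2-K1 together. The median log2 fold change of the 10, -0.83, was -0.75 with library totals only, -0.71 with limma on log2(RPKM + 1), -0.75 with limma on log2(RPKM + 0.1), and -0.89 to -0.78 when each library was left out in turn. Calls over all genes numbered 5498 and ranged from 4342 to 6232 without 1 library, the latter without DISC1-Δ3 replicate 3. Scaling moved their split, from 2807 higher and 2691 lower (51.1% higher) to 4126 and 1836 (69.2%) with library totals only, where 13.3% of the genes tested were lower; limma gave 3983 and 1774, or 3965 and 1763. The labels do not say whether a replicate number marks a shared litter or day. Deviations of libraries with the same number correlated at 0.121, 0.0313 and -0.09 across genes, beside -0.134 to 0.107 for other numbers. With deviations taken from the mean of only 3 libraries, this cannot exclude a pairing. With the replicate number as a block 5429 genes were called and the median of the 10 was -0.83. The log2 difference of the ratio of Psmb8 to Psmb5 ranged from -1.01 to -0.85 without 1 library, that of Psmb9 to Psmb6 from -1.06 to -0.88 and that of Psmb10 to Psmb7 from -0.49 to -0.39; with the block the smallest p of the exact sign-flip test, 0.25, was reached by each. Summing the class I heavy chain reads was chosen after the data were seen.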
